A study of Mus musculus with 9 samples.

Results

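The aquaporin genes Aqp1, Aqp3, Aqp4, Aqp5, Aqp7 and Aqp9, encode channels for water and glycerol, and their RNA was followed in mouse corneas. They were found as rows whose array annotation names exactly 1 gene. Each of the 6 had 1 such row, among 22180 genes read out in the same way. Corneas of 3 genotypes were compared, with 3 arrays per genotype and a pool of 10 corneas from 5 mice on each array. The rescued corneas carried the corn1 mutation of Dstn, the gene for the actin depolymerising factor destrin, and had lost Srf, the gene for serum response factor, from the corneal epithelium by genetic ablation. The mutant corneas carried the Dstn mutation without that ablation, and the third group was wild type (WT). Animals of all 3 groups were injected with doxycycline between postnatal days 28 and 58, were collected at 58 days of age and shared a mixed background (FVB, 129, A.BY, Swiss Black, C57BL6/J). The driver of the Srf ablation, and whether mutant and WT mice carried its transgenes, is not stated by the labels. Values are log2 intensities from a single-colour array, and a log2 difference of 1 is a doubling of intensity.

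Aquaporins are membrane channels through which water follows osmotic gradients, and the aquaglyceroporins among them (AQP3, AQP7 and AQP9) also pass glycerol. In the mammalian cornea the layers use different members: AQP5 and AQP3 lie in the epithelium, and AQP1 in the keratocytes of the stroma and in the corneal endothelium, the cell sheet that keeps the stroma clear by pumping fluid out of it. These layer assignments are background knowledge, since whole corneas were measured. In such samples, fewer cells of a type and less RNA per cell cannot be told apart.

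The Dstn genotype was visible on the arrays, and Srf was lower in rescued than in mutant corneas. Dstn was between 5.61 and 5.63 in rescued pools, between 5.54 and 5.80 in mutant pools and between 12.55 and 12.59 in WT pools. Srf was at 9.14, 9.45 and 8.45 in rescued pools, at 10.77, 10.72 and 10.55 in mutant pools and at 9.23, 8.98 and 9.17 in WT pools. Its limma log2 difference was −1.67 for rescued minus mutant (adjusted p = 0.000841) and −0.12 for rescued minus WT (adjusted p = 0.787). These whole-cornea values therefore do not show a loss of Srf below the WT level. Corneal epithelium was well represented, with the cornea-specific keratin gene Krt12 between 13.49 and 13.96 on every array. Pools differed in sex composition within and between groups. The Y-linked gene Kdm5d was at 5.48 in WT replicate 1, at 5.54 in WT replicate 3 and from 7.17 to 9.62 in all other pools. Sex composition was therefore partly confounded with the comparisons against WT. For Xist, mutant replicate 2 gave 6.12 and all other pools 11.76 to 12.94.

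Aqp5, the main water channel of the corneal epithelium, was lower in mutant than in WT corneas and back at the WT level in rescued corneas. It was the 1 member of 6 that passed the test in either of these comparisons. Aqp3, the epithelial aquaglyceroporin, had smaller differences of the same directions that missed the threshold. Aqp1, the channel of stroma and endothelium, differed in no comparison beyond its spread. Aqp4, Aqp7 and Aqp9 were dim, with WT means below the median of all rows on the array (6.77), so that signal above background was not shown for them in WT.

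The epithelial pair is described first. Aqp5 lies on chromosome 15 and Aqp3 on chromosome 4. The 250 bases before their gene starts are shown because Srf, the gene ablated in the rescued corneas, encodes a factor that binds the CArG box. The sequences are from RefSeq on GRCm38.p6, Aqp5 at chr15:99590778-99591027 on the plus strand and Aqp3 at chr4:41098184-41098433 on the minus strand, each written 5′ to 3′ along its gene. Capitals mark the E-box letters CACGTG in Aqp5 and the TATAAA letters in Aqp3.
Aqp5: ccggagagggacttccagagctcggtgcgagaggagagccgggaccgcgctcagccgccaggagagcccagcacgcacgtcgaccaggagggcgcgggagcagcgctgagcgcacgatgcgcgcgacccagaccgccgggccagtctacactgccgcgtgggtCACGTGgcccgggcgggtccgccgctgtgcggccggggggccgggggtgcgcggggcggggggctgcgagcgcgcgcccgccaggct
Aqp3: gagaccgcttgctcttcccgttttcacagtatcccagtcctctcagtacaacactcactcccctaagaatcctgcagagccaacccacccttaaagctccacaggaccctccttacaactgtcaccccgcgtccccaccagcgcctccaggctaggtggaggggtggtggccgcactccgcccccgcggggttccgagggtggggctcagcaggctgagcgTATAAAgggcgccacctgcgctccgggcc
Searched on both strands, neither window held a CArG box, which 1.47% of 32851 windows of the same length did. CACGTG, which ends 81 bases before the Aqp5 start, was found in 6.02% of all windows. TATAAA, which ends 23 bases before the Aqp3 start, was found in 12.4%. The Aqp5 window was 78.4% G or C and the Aqp3 window 64.0%, against a median of 52.4% over all windows. These matches describe the letters of the windows and do not show binding.

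Aqp5 (probe set 17314840) had log2 intensities of 13.63, 13.64 and 13.70 in the rescued pools, 13.15, 13.20 and 13.24 in the mutant pools and 13.68, 13.69 and 13.65 in the WT pools. The mutant pools lay apart, below all 6 others, and the rescued pools overlapped with the WT pools. The mutant level of Aqp5 was 1.39-fold below that of WT (limma log2 difference −0.47 with an SE of 0.06, adjusted p = 0.000164, n = 3 each). Rescued corneas were 1.37-fold higher than mutant corneas (log2 difference 0.46, SE 0.06, adjusted p = 0.00081). Between rescued and WT corneas the difference was −0.02, with a 95% interval of −0.14 to 0.11 (adjusted p = 0.902). Over the 3 groups together Aqp5 passed the moderated F test (adjusted p = 0.000252), as did 29.4% of all genes. Both of its called differences were under 2-fold. AQP5 is also known from lacrimal and salivary glands, and of 8 measured gland markers 2 (Ltf and Scgb2b27) were higher and 1 (Amy1) was lower in mutant corneas than in WT, with Pip, a gland secretory protein gene, at a difference of −0.09. Of 12 markers of conjunctiva and goblet cells, which also hold AQP3 and AQP5, 7 were higher and 2 lower. Over all genes, 15.1% were higher and 16.5% lower in mutant than in WT corneas. The part of such cells in the Aqp5 values was not tested.

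Aqp3 (probe set 17424119) had log2 intensities of 13.04, 13.07 and 13.16 in the rescued pools, 12.88, 12.82 and 12.97 in the mutant pools and 13.06, 13.05 and 13.06 in the WT pools. As for Aqp5, every mutant pool lay below every rescued and every WT pool, but the gap was narrow. The log2 difference between mutant and WT was −0.17, with a 95% interval of −0.31 to −0.03, and it missed the threshold after adjustment over all genes (adjusted p = 0.0696). For rescued against mutant it was 0.20, with an interval of 0.06 to 0.34 (adjusted p = 0.0665). Rescued and WT corneas differed by 0.03, with an interval of −0.11 to 0.17 (adjusted p = 0.81). In 4 of 24 alternative analyses Aqp3 passed in the first comparison, and in 4 of 24 in the second: with dim genes left out at either of 2 limits, with the variance allowed to follow intensity, and with a test that did not share variance across genes.

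**Figure D1:**
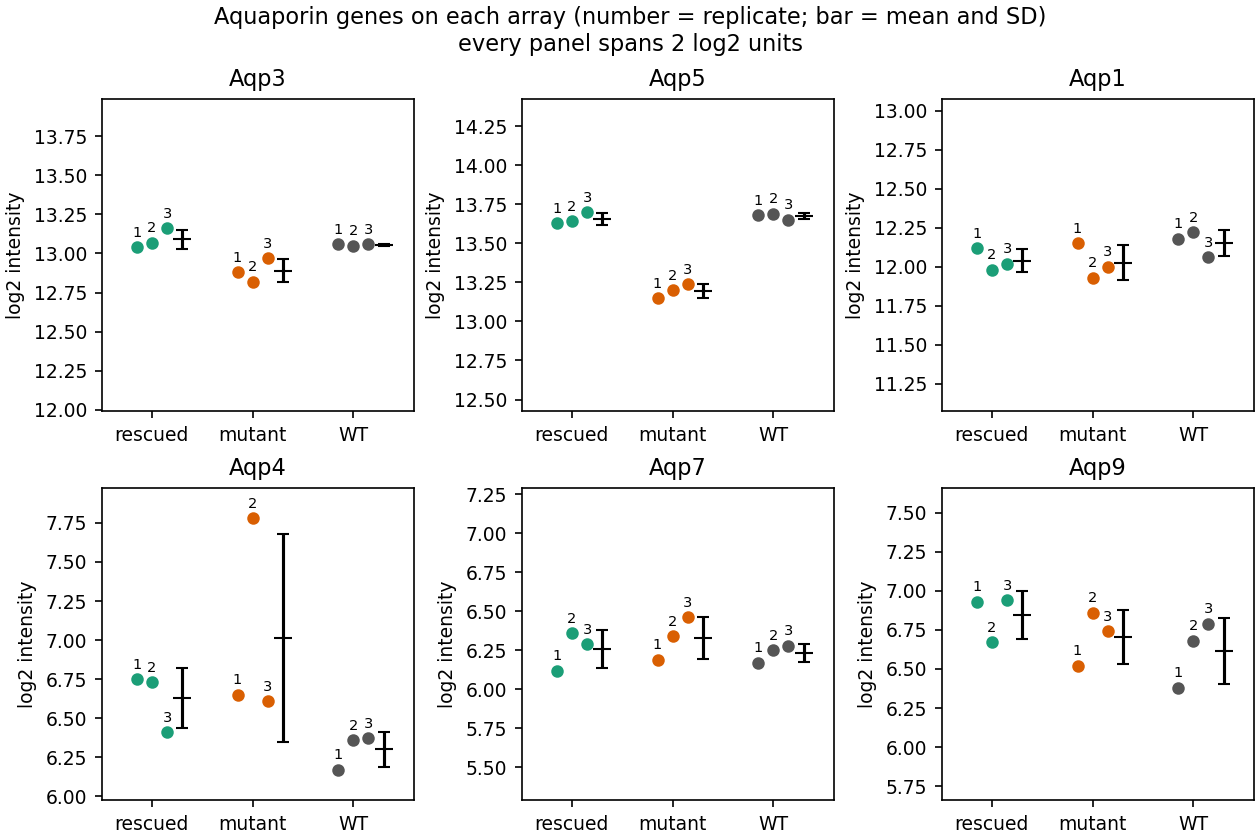
Log2 intensity (vertical axis, 2 units in every panel) of the 6 aquaporin genes in rescued, mutant and WT corneas; points are pools numbered by replicate, and the bar beside them is the mean with its SD (n = 3). The mutant pools of Aqp5, at 13.15 to 13.24, lie below the rescued and WT pools, and mutant replicate 2 stands at 7.78 for Aqp4.

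Aqp1 (probe set 17458813), the first water channel to be identified, also marks capillary endothelium and red blood cells. Its log2 intensities were 12.12, 11.98 and 12.02 in the rescued pools, 12.15, 11.93 and 12.00 in the mutant pools and 12.18, 12.22 and 12.06 in the WT pools. The 3 groups overlapped. The difference between mutant and WT was −0.13, with a 95% interval of −0.31 to 0.05 (adjusted p = 0.262), and that between rescued and mutant was 0.01, with an interval of −0.16 to 0.19 (adjusted p = 0.948). Rescued and WT corneas differed by −0.12, with an interval of −0.29 to 0.06 (adjusted p = 0.399). A difference of the size found for Aqp5 lay outside each of these intervals.

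Aqp4 (probe set 17352862), known from astrocytes, retinal glia and skeletal muscle, was at 6.75, 6.73 and 6.41 in the rescued pools, 6.65, 7.78 and 6.61 in the mutant pools and 6.17, 6.36 and 6.37 in the WT pools. Mutant replicate 2 stood more than 1 log2 unit above the other mutant pools. Rescued and mutant pools each lay above all WT pools. The log2 difference between mutant and WT was 0.71 (SE 0.27, adjusted p = 0.0709), and without mutant replicate 2 it was 0.33 (adjusted p = 0.067). Over all alternatives its adjusted p lay between 0.0385 and 0.22. It passed without mutant replicate 1 (0.89, adjusted p = 0.0467) and without mutant replicate 3 (0.91, adjusted p = 0.0385), the 2 selections that give replicate 2 more weight, and with all 9 arrays when the variance was allowed to follow intensity (0.71, adjusted p = 0.0481). With Y-linked expression as a covariate it was 0.57 (adjusted p = 0.22). Mutant replicate 2 was also the pool with the low Xist value. The 9 genes of retina, glia and ciliary body averaged 6.73 in that pool, against 6.87 and 6.81 in mutant replicates 1 and 3, and 9 skeletal muscle genes averaged 6.23, against 6.23 and 6.34. Only 4 of the 9 retina, glia and ciliary body genes had means at or above the median of all rows. For the 9 muscle genes it was 2. Averages of mostly dim genes could miss a difference between pools. In mutant against WT corneas, 5 of the retina and glia genes and 1 of the muscle genes were lower and none was higher. Of all genes, 16.5% were lower and 15.1% higher there. Rescued corneas differed from mutant corneas by −0.38 (adjusted p = 0.421) and from WT corneas by 0.33 (adjusted p = 0.493).

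Aqp7 (probe set 17424105), the glycerol channel of fat cells and a chromosome 4 neighbour of Aqp3 with no protein-coding gene between them, ranged from 6.12 to 6.36 in rescued, from 6.19 to 6.46 in mutant and from 6.17 to 6.28 in WT pools. Its log2 difference was 0.10 between mutant and WT (95% interval −0.10 to 0.29, adjusted p = 0.476) and −0.07 between rescued and mutant (adjusted p = 0.681). Adipoq and Plin1 define fat cells. Their means were 5.29 and 6.65 in rescued, 5.27 and 6.68 in mutant and 5.40 and 6.80 in WT corneas. All but the WT mean of Plin1 lay below the median of all rows (6.77). Of 9 fat cell markers, 2 were called higher and 1 lower in the mutant against WT (15.1% and 16.5% of all genes).

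Aqp9 (probe set 17528644), a channel of hepatocytes and neutrophils, ranged from 6.67 to 6.94 in rescued, from 6.52 to 6.86 in mutant and from 6.38 to 6.79 in WT pools. Mutant and WT corneas differed by 0.09 (95% interval −0.19 to 0.38, adjusted p = 0.655), rescued and mutant corneas by 0.14 (adjusted p = 0.56), and rescued and WT corneas by 0.23 (adjusted p = 0.299). Neutrophil markers were measured beside it. In mutant against WT corneas 5 of 11 were higher and none was lower (15.1% and 16.5% of all genes). S100a9, called among them, was at 6.40 in rescued, 7.95 in mutant and 5.96 in WT corneas. The other 4 called were Il1r2, S100a8, Cxcr2 and Csf3r, with mutant minus WT differences between 1.14 and 1.77. Ly6g, Elane and Mpo, all with means below the median of all rows, were among the 6 not called, with differences of 0.06, 0.03 and −0.06. All 5 called markers also had WT means below that median, between 4.79 (S100a8) and 6.54 (Cxcr2).

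Counted together, 1 of 6 members (Aqp5) was called between mutant and WT, where 31.6% of all genes were called, and 3 of 6 had groups that did not overlap (44.7% of all genes). Between rescued and mutant 1 of 6 was called (Aqp5 again; 13.3% of all genes), and 2 of 6 did not overlap (32.2% of all genes). With 6 genes, these counts do not stand apart from the background. None of 6 was called between rescued and WT (limma; 13.7% of all genes), none reached an unadjusted p under 0.05 there (26.8% of all genes), and none was called by the test without shared variance, which called 2303 genes. In that comparison 1 of 6 (Aqp4) had groups that did not overlap (31.6% of all genes). The median log2 difference of the members was −0.02 for mutant minus WT, the same as that of all genes. The mutant arrays enter both of the first comparisons, so that an increase in the second is not independent of a decrease in the first.

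**Figure D2:**
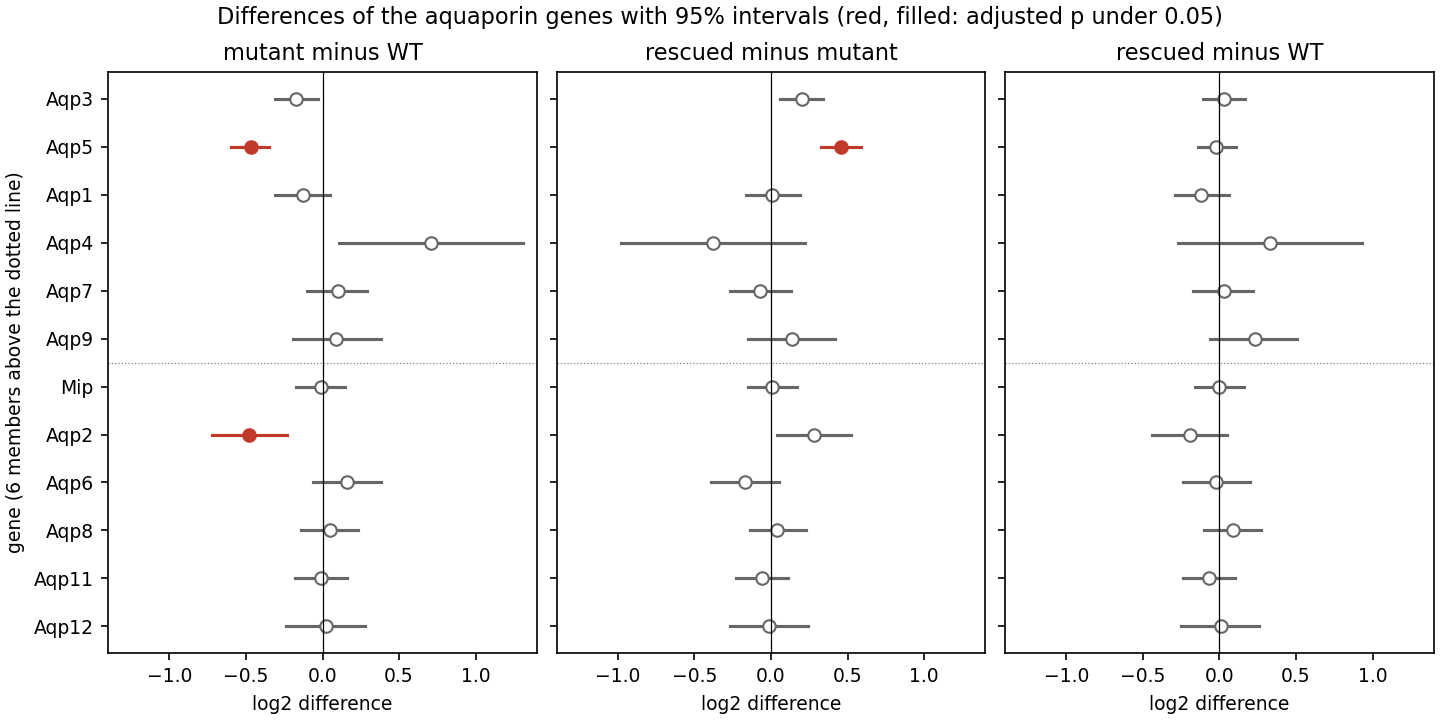
Log2 differences (horizontal axis) of 12 aquaporin genes in the 3 comparisons, with 95% intervals from limma; filled red points passed an adjusted p of 0.05. Aqp5 passed on both sides, at −0.47 and 0.46, and Aqp2 at −0.48 in the comparison of mutant with WT; none passed between rescued and WT.

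The 6 other aquaporin genes on the array were read as well. Aqp2, the vasopressin-regulated channel of the renal collecting duct and the direct neighbour of Aqp5 on chromosome 15, was at 7.75, 7.84 and 7.57 in rescued pools, 7.41, 7.27 and 7.64 in mutant pools and 7.92, 8.01 and 7.81 in WT pools. All mutant pools lay below all WT pools, and the rescued pools overlapped with both. In the mutant Aqp2 was 1.39-fold below WT (log2 difference −0.48 with an SE of 0.11, adjusted p = 0.00739); rescued corneas differed from mutant corneas by 0.28 (adjusted p = 0.124) and from WT corneas by −0.19 (adjusted p = 0.297). The mean of Aqp2 over the 9 arrays was 7.69, against 13.51 for Aqp5. Its call was not checked in the alternative analyses, which were read for the 6 members only. Aqp6, on the other side of Aqp5, had a mutant minus WT difference of 0.16 (adjusted p = 0.279). Mip, the gene for the lens fibre channel AQP0, was read from the brighter of its rows. It had means of 7.43, 7.42 and 7.43 in rescued, mutant and WT corneas. Of 11 other lens markers, 7 were lower in the mutant than in WT and none was higher (16.5% and 15.1% of all genes). Cryaa, a crystallin gene, was at 9.39, 10.09 and 11.85 in the same order of groups, whereas Bfsp1, Bfsp2, Lim2 and Gja3 were not called, with mutant minus WT differences between −0.15 and 0.13. Aqp8, Aqp11 and Aqp12 had mutant minus WT differences between −0.01 and 0.05, and none of them was called in any comparison.

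The aquaporins were set beside markers of the corneal layers and of cells that enter the cornea. Of 10 epithelial markers, 5 were lower and 3 higher in mutant than in WT corneas (median log2 difference −0.19; 16.5% and 15.1% of all genes were lower and higher). Between rescued and mutant 6 were higher and 3 lower (median 0.33; 6.46% and 6.88% of all genes). Klf4, a transcription factor gene of the differentiating epithelium, was at 11.72 in rescued, 11.06 in mutant and 11.69 in WT corneas, and Pax6, a regulator of eye identity, at 12.13, 11.69 and 12.37. Krt14, a keratin gene of basal cells, ran the other way, at 13.30 in rescued, 13.56 in mutant and 12.34 in WT corneas. Thus Aqp5 lay with the epithelial markers that were low in the mutant, while others, such as Krt14 and Cdh1 (0.44, adjusted p = 0.000316), were higher there.

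For the layers in which AQP1 is known, 8 of 10 corneal endothelial markers and 6 of 12 keratocyte markers were called between mutant and WT (31.6% of all genes), and Aqp1 was not. Of the 10 corneal endothelial markers, 7 were below and 1 was above the WT level in mutant corneas, with a median of −0.40. Slc4a11, the gene for a transporter whose loss causes corneal endothelial dystrophy in humans, had means of 11.69 in rescued, 11.58 in mutant and 11.91 in WT corneas (mutant minus WT −0.33, adjusted p = 0.0204), and Col8a1, for a collagen of Descemet's membrane, means of 9.70, 9.47 and 10.09 (−0.62, adjusted p = 0.000277). The largest difference of the list was the increase of Ccdc3 (1.31, adjusted p = 8.79e-05), and Foxc1 and Igfbp2 were not called. Of the 12 keratocyte markers, 4 were lower and 2 higher (median −0.11). The largest difference was the increase of Cd34 (0.85, adjusted p = 0.00185), which vessels also express; Kera, for the stromal proteoglycan keratocan, differed by −0.42 (adjusted p = 0.0259) and Lum, for lumican, by 0.03 (adjusted p = 0.905). In mutant against WT corneas, 11 of 12 markers of blood endothelium were up and 1, Kdr, was down, with a median of 1.66; Cdh5, for VE-cadherin, was at 9.03 in rescued, 9.82 in mutant and 6.43 in WT corneas. The summed level of that list, as the mean of its 12 genes per pool, was 7.61 to 7.91 in rescued, 8.10 to 8.46 in mutant and 6.69 to 6.74 in WT pools. Macrophage markers had 10 of 12 members higher and 1, Itgam, lower. Red blood cells were represented by 3 measured markers, with no call in any comparison, and Slc4a1, which defines them, had means of 6.58 in rescued, 6.60 in mutant and 6.63 in WT corneas. The share of any of these cells in the Aqp1 signal was not tested.

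**Figure D3:**
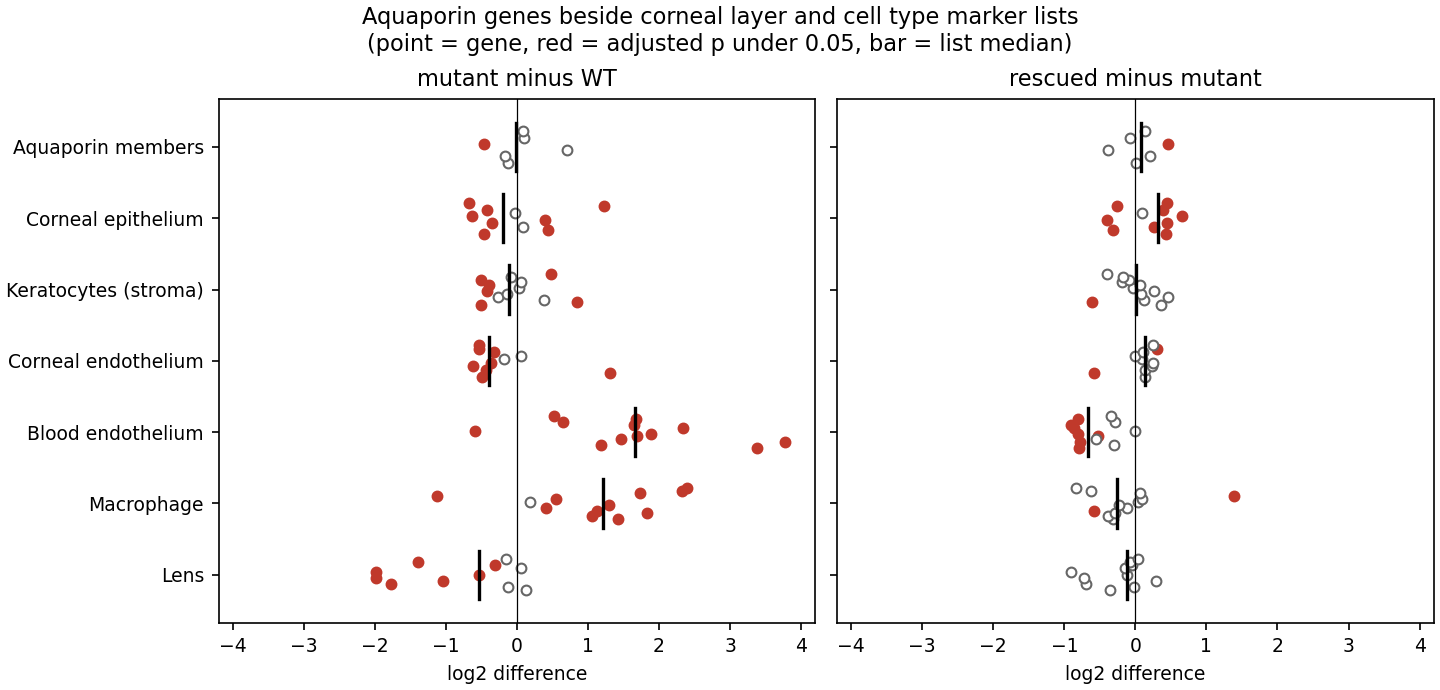
Log2 differences (horizontal axis) of single genes in 7 groups (rows) for mutant minus WT and rescued minus mutant; red points passed an adjusted p of 0.05 and black bars are medians. Blood endothelial and macrophage markers spread to the right for mutant minus WT (medians 1.66 and 1.21), whereas the aquaporin members stay between −0.47 and 0.71.

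Aqp5 was the 1 member to pass the F test, and the genes nearest to it in pattern were sought among 11828 others with a mean at or above the median of all rows. Likeness was the root mean square difference over the 9 arrays after each gene's own mean was subtracted. The nearest were Emp1 (0.03 log2 units), the gene for an epithelial membrane protein, Krt12 (0.032) and Aldh3a1 (0.034), the gene for an aldehyde dehydrogenase abundant in corneal epithelium. Emp1 was at 13.77, 13.84 and 13.85 in rescued, 13.31, 13.38 and 13.39 in mutant and 13.78, 13.80 and 13.78 in WT pools. Mutant minus WT differences were −0.43 for Emp1, −0.42 for Krt12 and −0.47 for Aldh3a1, and rescued minus mutant differences 0.46, 0.39 and 0.43. All 4 genes are among the brightest on the array, where the highest value was 14.32. Among the 50 genes with the highest means, 13 were lower and 4 higher in mutant corneas when set against WT, with a median of −0.07 and a range of −0.79 to 0.42, and 4 of them had a lower value than Aqp5. Whether differences are compressed at such intensities was not tested.

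**Figure D4:**
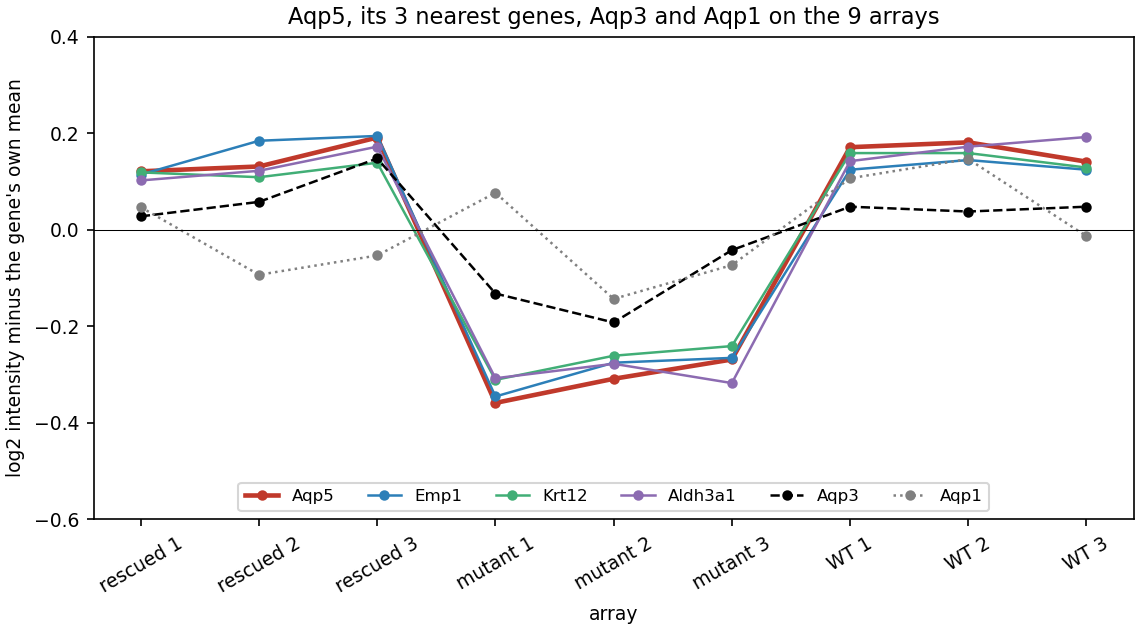
Log2 intensity minus each gene's own mean over 9 arrays (vertical axis) for Aqp5, Emp1, Krt12, Aldh3a1, Aqp3 and Aqp1 on each array (horizontal axis); lines only join the points of a gene. Aqp5 and its 3 nearest genes are low on the 3 mutant arrays, Aqp3 is low by less, and Aqp1 follows no group.

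Genes that work with water channels were described from 4 lists. Over all genes, 15.1% were higher and 16.5% lower in mutant than in WT corneas. Between rescued and mutant corneas, 6.46% were higher and 6.88% lower. Whether the counts of the 4 lists differ from these shares was not tested. Of 20 measured genes of corneal fluid and ion transport, 8 were higher and 4 lower in mutant than in WT corneas (median 0.07), and 7 were lower and 3 higher in rescued than in mutant corneas. The largest differences between mutant and WT were those of the carbonic anhydrase genes Car12 and Car2 and the monocarboxylate transporter genes Slc16a3 and Slc16a1. Car12 was at 8.43 in rescued, 9.37 in mutant and 6.94 in WT corneas, and it was called in all 3 comparisons (2.82-fold higher in rescued than in WT, adjusted p = 0.000531). Slc16a3 was at 8.15, 9.23 and 7.62, Car2 at 6.48, 7.46 and 5.93, and Slc16a1 at 9.17, 9.96 and 8.62, and each was also called in all 3. These genes therefore remained above WT in the rescued corneas.

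Of 8 measured genes of the osmotic response, 4 were lower and 2 higher in mutant than in WT corneas (median −0.29), and 4 were higher and 1 lower in rescued than in mutant corneas. Trpv4, the gene for an osmosensitive calcium channel, was at 8.49 in rescued, 8.06 in mutant and 8.89 in WT corneas, with mutant minus WT at −0.83 (adjusted p = 7.9e-05). Sgk1, for a kinase that acts on sodium channels, was at 10.82, 10.32 and 10.97, and Slc6a6, for the transporter of the osmolyte taurine, at 12.55, 12.19 and 12.79. Hspa4l, for a heat shock protein induced by osmotic stress, was higher in mutant corneas, at 8.68 in rescued, 9.49 in mutant and 7.84 in WT corneas.

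Glycerol, which AQP3, AQP7 and AQP9 carry, is used in triglyceride metabolism. Of 12 measured genes of that metabolism, 6 were lower and 2 higher in mutant than in WT corneas (median −0.23). Between rescued and mutant corneas Lipe alone was called, as higher, with a median of 0.14 over the list. Lipe, for hormone-sensitive lipase, was at 8.10 in rescued, 7.75 in mutant and 8.42 in WT corneas, and Gpam, for the enzyme that starts glycerolipid synthesis, at 8.92, 8.65 and 9.29. Gpd1l, for a glycerol-3-phosphate dehydrogenase, was at 9.50, 9.52 and 10.08, lower than WT in both other groups (adjusted p = 0.00113 in mutant and adjusted p = 0.00338 in rescued corneas). Pld2, for a phospholipase D, was higher in mutant than in WT corneas (0.48, adjusted p = 0.000463).

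Among 9 measured partners and regulators of aquaporins, which include Trpv4, 2 were lower and 2 higher in mutant than in WT corneas, and 2 were higher in rescued than in mutant corneas. Ezr, the gene for ezrin, which links membrane proteins to actin, was at 12.17 in rescued, 11.78 in mutant and 12.24 in WT corneas. Its differences were −0.46 for mutant minus WT (adjusted p = 0.000174) and 0.38 for rescued minus mutant (adjusted p = 0.00177), close in size to those of Aqp5. Tnfrsf1a, a tumour necrosis factor receptor gene, and Cd44, for a hyaluronan receptor, were higher in mutant than in WT corneas, by 0.43 and 0.34.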

How the data were processed

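Total RNA from pooled mouse corneas was extracted with Trizol, amplified and biotin-labelled with Ambion and Affymetrix kits for whole transcripts and read on arrays of 1 colour, per the labels. Deposited were log2 intensities, normalised between arrays by the authors with a method that no label names; their range (2.14 to 14.32) points to base 2. Of 41345 rows, 23521 had exactly 1 gene symbol in the platform annotation, and the row with the highest mean over 9 arrays stood for each of 22180 genes.

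Groups were compared over all 9 arrays with limma 3.58.1 in R 4.3.3 (moderated two-sided tests of contrasts), with Benjamini-Hochberg adjustment over all genes and calls at an adjusted p under 0.05. SEs and 95% intervals are moderated; SDs are over 3 pools. On simulated arrays of 22180 genes, mutant minus WT changes of 0.5, 1, 2 and 3 (log2) were recovered in 68%, 90%, 100% and 100% of 50 genes each, with 8 false calls. Far fewer genes were changed there than the 7004 called between mutant and WT. The adjustment for multiple tests therefore acted differently, and these rates do not carry over to the data. With 3 arrays in a group, precision is limited. Members, lists, tests and the rule for named genes were chosen with earlier results of these data known. Named were all aquaporin genes, Dstn and Srf, and up to 4 genes per list with the largest mutant minus WT difference. Markers that define a list were named too, as were the 3 genes nearest to a member that passed the F test. Cdh1, Kdr, Itgam, Foxc1, Igfbp2 and the gland, lens and neutrophil genes outside that rule were chosen after their values were seen.

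Same-numbered replicates did not deviate together (correlations of −0.02 to 0.06 across genes, against −0.10 to 0.08 for different numbers). No pairing by number was visible, but with 3 pools per group this cannot exclude shared handling. Alternatives were 2 other normalisations, 2 intensity limits, other rows, limma options, 6-array fits, weights, a replicate block, an unmoderated test, stricter thresholds, a covariate of 3 Y-linked genes and leaving out each array. Promoter windows were read for 11 aquaporin genes, with the member Aqp4 left out, and no CArG box was found in them. With a CArG box in 1.47% of all windows, its absence from so few says little. Figures were drawn with matplotlib 3.10.9.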

Additional observations from a re-analysis of the deposited data

How the results depend on the processing

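No called difference of a member changed direction, and Aqp5 stayed called between mutant and WT (log2 difference −0.50 to −0.45) and between rescued and mutant (0.43 to 0.48) in 23 of 24 alternatives each, the exception being the 2-fold minimum. With that minimum 0 members were called in both comparisons, and all genes called were 1116 for mutant minus WT (as reported 7004), 312 for rescued minus mutant (2959) and 372 for rescued minus WT (3042). With an adjusted p under 0.01, 1420 and 1374 genes were called in the last 2 of these. The members called between mutant and WT were 2 with genes at or above the median intensity, 2 at or above the 25th percentile and 2 with the unmoderated test, where Aqp3 joined Aqp5, and 3 with an intensity trend, where Aqp3 and Aqp4 joined it. Between rescued and mutant, and in the F test, 2 members were called in each of these 4 settings. The cause was not tested, except that both intensity limits test fewer genes. Leaving out 1 array gave 1 to 2 members between mutant and WT, 1 between rescued and mutant, 0 between rescued and WT and 1 in the F test; over all genes it gave 5913 to 6948, 1808 to 2795 and 1812 to 2975 calls, the lowest of the second without rescued replicate 3 and of the third without rescued replicate 2, while without mutant replicates 1 and 3 the second was 1871 and 1931. With the replicate block, Aqp5 was at −0.47 (adjusted p = 0.000969) and 0.46 (adjusted p = 0.00384), 1, 1 and 0 members were called, and no member's call changed; all genes called were 6687, 2507 and 2656. Higher genes were 47.9% of calls between mutant and WT, 52.1% after quantile normalisation and 51.3% after centring. No background measure per probe was used, so that the dim members (Aqp4, Aqp7, Aqp9) could hide differences.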
